A study of Mus musculus with 6 samples.

Results

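Slc7a10, Slc6a9, Slc6a11 and Slc6a6 encode membrane transporters of small neutral amino acids, and Abat and Maob encode enzymes of GABA metabolism. These 6 genes were examined together in astrocytes sorted from injured and from uninjured mouse cortex. The members were chosen by symbol: every probe set that the platform annotation pairs with exactly 1 of the 6 symbols was taken, which gave 12 of 45037 non-control probe sets. Slc6a6 was read by 4 probe sets, Slc6a11, Slc6a9 and Abat by 2 each, and Slc7a10 and Maob by 1 each. They are grouped as GABA, glycine and serine transporters, which describes them only in part, since Slc6a6 carries taurine and Abat and Maob are mitochondrial enzymes.

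The 3 reactive samples were green fluorescent cells from GFAP-eGFP mice (TgN(hGFAP-EGFP) GFEA), whose reporter is under a human GFAP promoter, sorted 5 days after the grey matter of the somatosensory cortex was stabbed to a depth of 0.7 mm over a length of 1 to 1.2 mm. The 3 non-reactive samples were fluorescent cells from the matching region of uninjured Aldh1l1-eGFP mice (Tg(Aldh1l1-eGFP)OFC789Gsat), whose reporter is driven by Aldh1l1 regulatory sequence. All mice were FVB/N, 2 to 3 months old and of undetermined sex, and each array held RNA pooled from about 15 animals. Injury and reporter line changed together, so their parts in any difference cannot be told apart.

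Astrocytes clear transmitters and related amino acids from the extracellular space with sodium-coupled transporters of the Slc6 family. Slc6a11 takes up GABA, Slc6a9 takes up glycine, a co-agonist of NMDA receptors, and Slc6a6 takes up taurine. Slc7a10 belongs to another family: it forms a sodium-independent exchanger with the heavy chain Slc3a2, and it moves D-serine, glycine, L-serine, alanine and cysteine. Abat breaks GABA down to succinic semialdehyde, and Maob oxidises monoamines and also acts in the route from putrescine to GABA.

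Values are log2 expression after RMA, made by the authors. A difference of 1 between groups is a 2-fold difference. The 6 array medians lay between 4.65 and 4.73, and over all probe sets the median of the means was 4.74. A probe set with a mean below 4.74 is called dim here, and 3 of the 12 member probe sets were dim. The correlation over all probe sets was 0.901 to 0.921 between reactive arrays, 0.95 to 0.963 between non-reactive arrays and 0.889 to 0.93 between the groups.

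Of the 12 member probe sets 1 passed the test, that of Slc7a10, and it was lower in reactive astrocytes. Over all probe sets 0.85% passed in either direction and 0.584% passed as lower (limma, Benjamini-Hochberg adjusted p under 0.05). The median log2 difference was 0.02 over the 12 member probe sets and 0.10 over all 45037 probe sets. Of the 12, 5 lay below 0, against 17841 of all 45037. The groups did not overlap for 2 of the 12, Slc7a10 and 1 probe set of Slc6a11, both lower in reactive astrocytes. Over all probe sets 20.9% had groups that did not overlap in either direction, and 8.08% had groups that did not overlap with the reactive arrays lower.

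**Figure D1:**
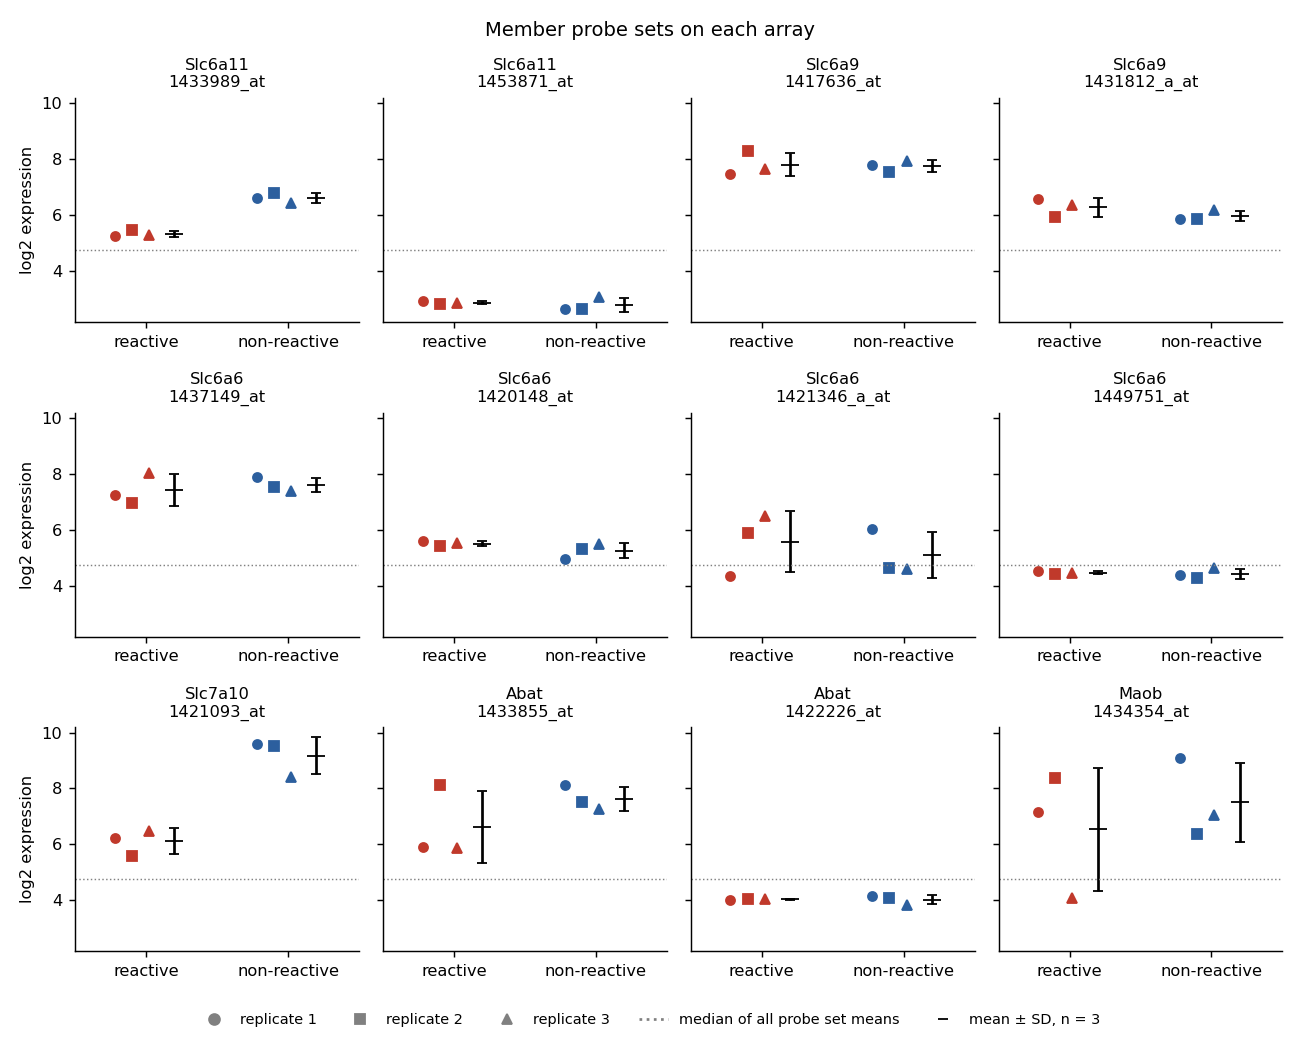
Log2 expression of the 12 member probe sets on each array, reactive left of non-reactive in each panel. Symbols mark the replicate number, bars the mean ± SD (n = 3), and the dotted line the median of all probe set means, 4.74. The reactive and non-reactive points are apart for Slc7a10 and for Slc6a11 probe set 1433989_at and overlap in the other 10 panels.

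Slc7a10, the D-serine and glycine exchanger, was the member past the test. On probe set 1421093_at it measured 6.23, 5.59 and 6.49 on reactive arrays 1, 2 and 3, against 9.58, 9.52 and 8.42 on non-reactive arrays 1, 2 and 3. Every reactive array lay below every non-reactive one, and the highest reactive value and the lowest non-reactive value both belonged to replicate 3. The means were 6.10 ± 0.46 in reactive and 9.17 ± 0.66 in non-reactive astrocytes (log2, SD, n = 3 each). Slc7a10 fell by 3.07 on the log2 scale (SE 0.40, 95% interval -4.02 to -2.12), which is 8.40-fold lower in reactive astrocytes, with a limma adjusted p of 0.0363. The probe set was not dim in either group. Leaving out any 1 array kept the direction, with differences of -3.45 to -2.81, but ended the call in each case. The limma adjusted p was 0.0854, 0.0709 and 0.0574 without reactive replicate 1, 2 or 3, and 0.12, 0.132 and 0.0654 without non-reactive replicate 1, 2 or 3.

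The heavy chain that partners Slc7a10, Slc3a2, differed less and did not pass. It measured 7.93, 7.70 and 9.21 on the reactive arrays and 9.31, 8.47 and 8.88 on the non-reactive arrays, and the groups overlapped. Its log2 difference was -0.61 (SE 0.44, 95% interval -1.67 to 0.45, limma adjusted p = 0.589).

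Slc6a11, the GABA transporter, came closest to the threshold among the others. Probe set 1433989_at measured 5.24, 5.46 and 5.27 on the reactive arrays and 6.60, 6.81 and 6.44 on the non-reactive arrays. The groups did not overlap, and the spread within each was small beside the gap between them, with means of 5.32 ± 0.12 in reactive and 6.61 ± 0.19 in non-reactive astrocytes (SD, n = 3 each). The log2 difference was -1.29 (SE 0.20, 95% interval -1.77 to -0.81), which is 2.44-fold lower in reactive astrocytes, and the limma adjusted p of 0.0508 missed the threshold. Without any 1 array the difference ranged from -1.38 to -1.19.

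The other Slc6a11 probe set, 1453871_at, was dim on all arrays. It measured 2.91, 2.80 and 2.86 on the reactive arrays and 2.65, 2.63 and 3.06 on the non-reactive arrays. Its mean was higher than those of only 5.58% of probe sets, its log2 difference was 0.08 (SE 0.21, limma adjusted p = 0.887), and it gave no sign of the separation seen on 1433989_at.

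Promoter sequences are shown for the 2 members whose groups did not overlap, a choice made from these same values. Any 2 genes of that kind are lower on the same 3 reactive arrays, so the choice shows no shared control. Each is the 250 bases before the annotated start in RefSeq (build GRCm38.p6), on the plus strand, with CG dinucleotides in capitals. The Slc7a10 window is chr7:35186135-35186384 and the Slc6a11 window is chr6:114130991-114131240.
Slc7a10: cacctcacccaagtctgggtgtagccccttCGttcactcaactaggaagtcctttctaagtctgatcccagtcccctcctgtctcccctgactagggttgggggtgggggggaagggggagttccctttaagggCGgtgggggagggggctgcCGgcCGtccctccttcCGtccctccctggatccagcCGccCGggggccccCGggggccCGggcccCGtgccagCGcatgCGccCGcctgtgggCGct
Slc6a11: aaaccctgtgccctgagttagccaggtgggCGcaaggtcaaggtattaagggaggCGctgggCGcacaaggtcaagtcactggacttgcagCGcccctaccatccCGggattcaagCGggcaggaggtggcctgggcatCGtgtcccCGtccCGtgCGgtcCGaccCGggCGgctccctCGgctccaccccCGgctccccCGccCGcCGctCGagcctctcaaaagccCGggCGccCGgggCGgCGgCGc
The Slc7a10 window holds 14 CG dinucleotides and is 69.6% G and C, and the Slc6a11 window holds 25 and is 71.2% G and C, where the medians over all 32851 windows of the same length were 6 and 52.4%. Of the windows, 70.6% hold fewer CG dinucleotides than that of Slc7a10 and 89.3% hold fewer than that of Slc6a11. Neither window holds a match on either strand to the AP-1 motif TGANTCA, the STAT motif TTCNNNGAA, the NFI core TTGGC or the TATA box letters TATAAA, which 6.75%, 7.02%, 41.5% and 12.4% of all windows hold. The E-box CANNTG, held by 66.2% of all windows, has 1 match in the Slc6a11 window, 228 bases before the start, and none in the Slc7a10 window. The letters of a motif are a description of these windows and say nothing of whether a factor acts there. The sequence table used here gave windows for 3 of the 6 members, the third being Slc6a9. Slc6a9 windows 1, 2 and 3 hold 9, 10 and 8 CG dinucleotides and are 60.4%, 60.8% and 60.8% G and C. Window 1 holds 4 E-boxes and 1 NFI core, and window 3 holds 1 NFI core. None of the 3 holds the AP-1, STAT or TATA letters.

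Slc6a9, the glycine transporter, did not pass the test on either probe set. Probe set 1417636_at measured 7.49, 8.28 and 7.64 on the reactive arrays and 7.79, 7.53 and 7.95 on the non-reactive arrays. The groups overlapped, and the log2 difference was 0.05 (SE 0.27, 95% interval -0.61 to 0.70, limma adjusted p = 0.953). Probe set 1431812_a_at measured 6.58, 5.92 and 6.35 on the reactive arrays and 5.87, 5.85 and 6.19 on the non-reactive arrays. Here too the groups overlapped, with a log2 difference of 0.31 (SE 0.25, 95% interval -0.27 to 0.90, limma adjusted p = 0.612). The first interval leaves out a fall larger than 0.61 and the second a fall larger than 0.27 on the log2 scale.

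Slc6a6, the taurine transporter, had 4 probe sets, and none passed. The brightest probe set, 1437149_at, measured 7.23, 6.95 and 8.05 on the reactive arrays and 7.89, 7.53 and 7.38 on the non-reactive arrays. The groups overlapped, and both the lowest and the highest of the 6 values were reactive, for a log2 difference of -0.19 (SE 0.33, 95% interval -0.98 to 0.60, limma adjusted p = 0.822). Without reactive replicate 2 this difference was 0.04, so its sign rested on 1 array. Probe set 1421346_a_at varied most, with 4.35, 5.88 and 6.49 on the reactive arrays and 6.03, 4.64 and 4.602 on the non-reactive arrays. Each group there held at least 1 array well away from the others, and the log2 difference of 0.48 had an SE of 0.64 (limma adjusted p = 0.763), with 1.09 without reactive replicate 1 and 0.02 without reactive replicate 3. The remaining probe sets, 1420148_at and 1449751_at, are annotated to the same sequence accession and differed by 0.25 (SE 0.22) and 0.03 (SE 0.19). The second of them was dim.

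Abat, the GABA transaminase, differed by -1.01 on the log2 scale on probe set 1433855_at (SE 0.63, 95% interval -2.51 to 0.50) and did not pass (limma adjusted p = 0.536). The reactive arrays measured 5.92, 8.12 and 5.86, and the non-reactive arrays 8.11, 7.52 and 7.28. Reactive replicates 1 and 3 lay below every non-reactive array, while reactive replicate 2 was the highest of the 6 arrays. Without that array the log2 difference was -1.75 (SE 0.31, limma adjusted p = 0.0914). The other Abat probe set, 1422226_at, was dim, with 4, 4.04 and 4.05 on the reactive arrays and 4.14, 4.10 and 3.83 on the non-reactive arrays, and differed by 0.01 (SE 0.19, limma adjusted p = 0.984).

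Maob, monoamine oxidase B, spread more widely over the arrays than any other member. Its probe set 1434354_at measured 7.15, 8.36 and 4.08 on the reactive arrays and 9.10, 6.36 and 7.05 on the non-reactive arrays. The groups overlapped, with means of 6.53 ± 2.21 in reactive and 7.501 ± 1.43 in non-reactive astrocytes (SD, n = 3 each). The log2 difference was -0.97 (SE 1.19, 95% interval -3.80 to 1.86, limma adjusted p = 0.745). Reactive replicate 3 set its direction: without that array the difference was 0.25. Without non-reactive replicate 1, the array with the highest value, it was -0.17. An interval this wide holds both a fall and a rise of several fold.

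**Figure D2:**
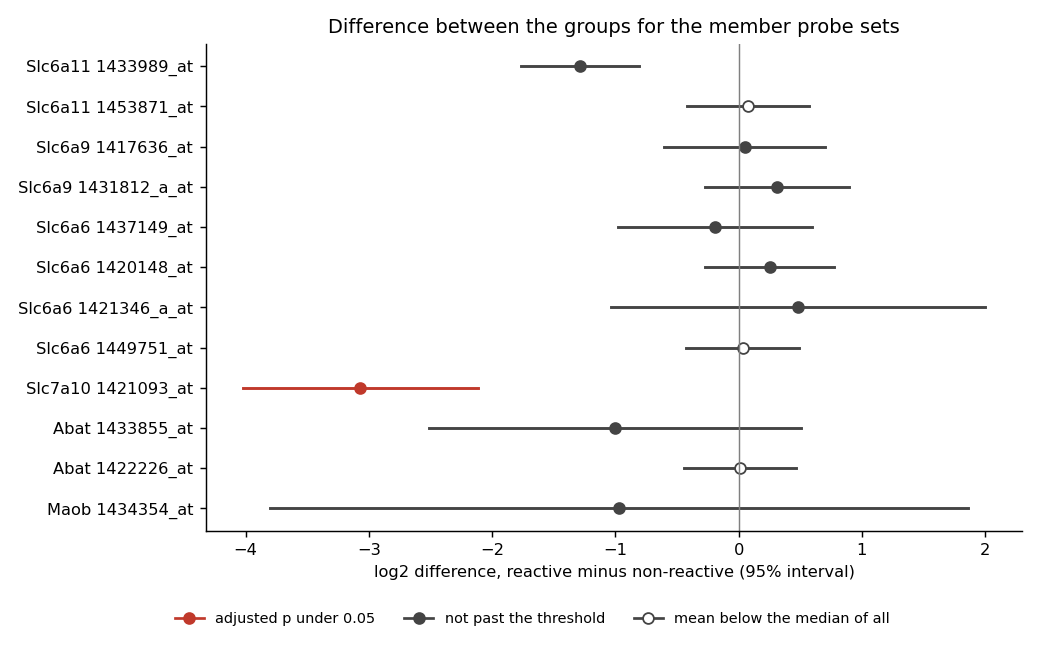
Log2 difference, reactive minus non-reactive, of each member probe set, with its 95% interval from limma on the horizontal axis. Red marks the probe set past the threshold, and open circles mark the 3 dim probe sets. Slc7a10 lies at -3.07 and Slc6a11 1433989_at at -1.29, and the intervals of the other 10 probe sets include 0.

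Ordered by the log2 difference of their brightest probe set, the genes ran from Slc7a10 at -3.07 through Slc6a11 at -1.29, Abat at -1.01, Maob at -0.97 and Slc6a6 at -0.19 to Slc6a9 at 0.05. The 95% intervals of Slc7a10 and Slc6a11 did not overlap, while those of Slc6a11, Abat, Maob and Slc6a6 each overlapped the next in the order. The interval of Slc7a10 did overlap those of Abat and Maob. Differences between genes were not tested, and levels of different probe sets are not comparable on an array.

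The profiles most like each member were looked for among 12106 other genes with a representative probe set that was not dim. Likeness was the root mean square distance over the 6 arrays, after each profile was centred on its own mean, and since the groups differ by injury and line the arrays of a group share both. The nearest to Slc7a10 were Slc39a12, a zinc transporter, at a distance of 0.33, with a log2 difference of -2.83, and Lin7c and Smpdl3a at the same rounded distance, with differences of -2.60 and -3.03. The nearest to Slc6a11 were 4933431E20Rik at 0.11, Zfp91 at 0.12 and Tmem109 at 0.14, with log2 differences of -1.24, -1.29 and -1.23. Those of Slc6a9 were Cdhr4, Trpm6 and Abhd17a, at 0.07 to 0.09, and those of Slc6a6 were Cct3, Micu2 and Cnn3, at 0.08 to 0.11. Abat was nearest to Smarca2 at 0.14, Nat8f4 at 0.21 and Trp53inp1 at 0.22, and Maob was nearest to Ankrd6 at 0.42. The distance was not scaled to the spread of a profile, so distances of different members are not comparable. Neighbours were picked for a like profile over the same 6 arrays. Group differences close to that of the member therefore follow from the choice and are no separate result.

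Other genes that make, move or sense GABA, glycine, serine and taurine, with the other Slc6, Slc7 and Slc3 genes, formed 7 lists of 85 different genes, of which 79 were measured. None of the 79 passed in either direction (limma, 0 calls), against 0.951% of all 18193 genes, and 7 were lower and 1 was higher at an unadjusted p under 0.05, against 7.13% lower and 7.88% higher over all genes. Their median log2 difference was 0.07, against 0.12 over all genes, and 33 lay below 0 and 46 above.

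Serine genes held the smallest adjusted p among the 79. Sfxn1, a mitochondrial serine carrier, measured 9.06, 9.40 and 9.88 on the reactive arrays and 10.83, 11.16 and 10.87 on the non-reactive arrays. These groups did not overlap, as for 21.7% of all genes, and the log2 difference was -1.51 (SE 0.27, limma adjusted p = 0.0677). Phgdh, the first enzyme of serine synthesis, had means of 10.68 ± 0.30 in reactive and 11.48 ± 0.23 in non-reactive astrocytes, a log2 difference of -0.80 (SE 0.24, limma adjusted p = 0.242). Psat1, the next enzyme of that route, differed by -0.19 (SE 0.25). Of the 10 serine genes measured, 5 lay below 0 and 5 above, and the median log2 difference was 0.01. At an unadjusted p under 0.05, 3 were lower, namely Sfxn1, Phgdh and Slc1a4. Slc1a4 differed by -1.01 (SE 0.33, limma adjusted p = 0.27).

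Among 11 measured GABA receptor subunits, 7 lay below 0, 2 of them (Gabrb1 and Gabrg1) at an unadjusted p under 0.05, and the median log2 difference was -0.19. Gabrb1, a GABA-A receptor subunit, measured 9.88, 10.12 and 8.75 on the reactive arrays and 11.71, 11.48 and 11.36 on the non-reactive arrays. It was lower on every reactive array, by a mean of -1.94 on the log2 scale (SE 0.38, limma adjusted p = 0.0886). Gabrg1 also differed by -1.94 (SE 0.47, limma adjusted p = 0.144). Gabbr1, a subunit of the GABA-B receptor, differed by -0.68 (SE 0.30, limma adjusted p = 0.392), and Gabrd, another GABA-A receptor subunit, by -0.24 (SE 0.35).

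Among the 12 measured genes of GABA synthesis and transport, 6 lay below 0 and 6 above, with 0 at an unadjusted p under 0.05 and a median of -0.07. The bright ones were Odc1, which makes putrescine, at 0.31 (SE 0.40), Aldh9a1, an aldehyde dehydrogenase, at -0.22 (SE 0.45), and Slc32a1, the vesicular transporter of GABA and glycine in neurons, at 0.53 (SE 0.38).

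Of 14 glycine genes measured, 7 lay on each side of 0, with a median of 0.03 and 1 lower at an unadjusted p under 0.05. That gene was Gldc, the decarboxylase of the glycine cleavage system, with means of 7.85 ± 0.90 in reactive and 9.32 ± 0.58 in non-reactive astrocytes and a log2 difference of -1.47 (SE 0.51, limma adjusted p = 0.296). Gcsh, the carrier protein of that system, differed by -0.51 (SE 0.38), and Glrb, the beta subunit of the glycine receptor, by -0.55 (SE 0.42).

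The 5 taurine genes had a median of -0.24. Csad, which makes hypotaurine from cysteine sulfinic acid, measured 5.51, 7.58 and 5.78 on the reactive arrays and 7.86, 8.40 and 7.54 on the non-reactive arrays. Reactive replicate 2 alone reached the non-reactive range, and the log2 difference was -1.65 (SE 0.57, limma adjusted p = 0.294). The thiol dioxygenase Ado and the cysteine dioxygenase Cdo1 differed by -0.24 (SE 0.48) and -0.55 (SE 0.47).

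None of the 16 other Slc6 genes measured passed, and 0 had an unadjusted p under 0.05. Of the 16, 2 lay below 0, against 7156 of all 18193 genes, and their median was 0.33, against 0.12 over all genes. Means below 4.74 were found for 10 of the 16 in reactive and for 11 in non-reactive astrocytes. The bright creatine transporter Slc6a8 differed by -0.03 (SE 0.29), the amino acid transporter Slc6a17 by 0.45 (SE 0.30) and the proline transporter Slc6a7 by 0.40 (SE 0.42). Of the other 16 Slc7 and Slc3 genes none passed, 3 lay below 0 and the median was 0.19, and 8 of the 16 had means below 4.74 in each group. At an unadjusted p under 0.05, 0 were lower and 1 was higher. That gene was Slc7a8, with a log2 difference of 0.63 (SE 0.23, limma adjusted p = 0.311). Slc7a1, a transporter of cationic amino acids, differed by 0.02 (SE 0.36), and Slc7a5, a light chain for large neutral amino acids, by 0.17 (SE 0.44).

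**Figure D3:**
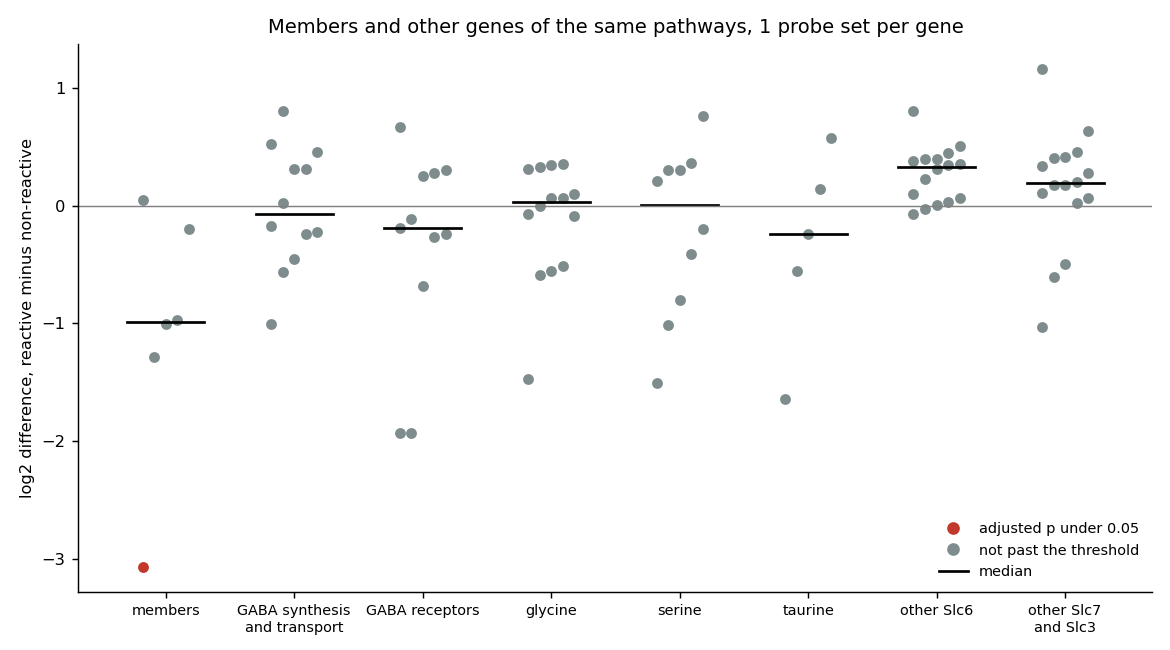
Log2 difference, reactive minus non-reactive, of the 6 members and of the genes of the 7 pathway lists, each gene drawn by its brightest probe set, with a black line at the median. Slc7a10, at -3.07, is the 1 red point past the threshold, and none of the other genes passed.

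The sorted cells carried astrocyte markers in both groups, and markers of other cells differed beside the members. The 12 astrocyte markers averaged 9.76 to 10.10 on the reactive and 10.73 to 11.16 on the non-reactive arrays, and none was dim in either group. Of them 11 lay below 0, with 3 past the test (Sox9, Slc1a3 and Gja1), and Gfap was higher past the test, where 0.561% of all genes passed as lower and 0.39% as higher. The median over the 12 was -1.50, against -3.07 for Slc7a10 and -1.29 for Slc6a11. Aldh1l1, whose regulatory sequence drives the non-reactive reporter, differed by -0.57 (SE 0.23).

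The 14 measured markers of microglia and macrophages averaged 9.28 to 9.65 on the reactive and 7.33 to 7.67 on the non-reactive arrays. All 14 lay above 0, 6 of them past the test, and 1 had a mean below the median of all probe sets in each group. The 9 oligodendrocyte markers averaged 9.56 to 10.03 on the reactive and 7.94 to 8.97 on the non-reactive arrays, with 8 above 0, 1 of them past the test, and none dim. The 10 blood leukocyte markers averaged 6.29 to 7.15 on the reactive and 4.72 to 5.26 on the non-reactive arrays. Of these 9 lay above 0, and Lyz2, a lysozyme of myeloid cells, Cd52 and Plac8 passed, at log2 differences of 5.67, 3.52 and 3.31. The other 7 did not pass. Ptprc, S100a8 and S100a9 differed by 1.94, 1.40 and 0.71. Cd3e, Ms4a1, Cd3d and Ccr2 lay near 0, at 0.15, 0.11, 0.03 and -0.03, so the rise did not extend to every marker of this list. Means below 4.74 were found for 2 of the 10 in reactive and for 4 in non-reactive astrocytes. All 7 markers of oligodendrocyte precursors lay above 0 without passing, at averages of 6.52 to 7.24 on the reactive and 5.92 to 6.57 on the non-reactive arrays. No marker of neurons, endothelium or pericytes and smooth muscle passed, and the averages of these lists overlapped between the groups. They were 7.63 to 8.97, 4.62 to 5.90 and 4.596 to 5.47 on the reactive arrays, and 8.05 to 8.70, 4.40 to 4.90 and 4.97 to 5.25 on the non-reactive arrays. Single markers did differ at an unadjusted limma p under 0.05. Pdgfrb and Rgs5 of pericytes were lower, at -2.24 and -0.98, and Tubb3 of neurons was higher, at 1.05. Of the 8 pericyte and smooth muscle markers, 4 in reactive and 5 in non-reactive astrocytes had means below 4.74.

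The 3′ minus 5′ difference of the control probe sets, a measure of transcript coverage after amplification, averaged 4.17 for Gapdh, 3.38 for Actb and 1.44 for the pyruvate carboxylase control on the reactive arrays, and 5.19, 5.05 and 3.46 on the non-reactive arrays. The part of microglia and macrophages, blood leukocytes, oligodendrocytes, their precursors and RNA coverage in the lower values of Slc7a10 and Slc6a11 was not tested. In sorted pools, fewer astrocytes and less RNA of a gene per astrocyte cannot be told apart.

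**Figure D4:**
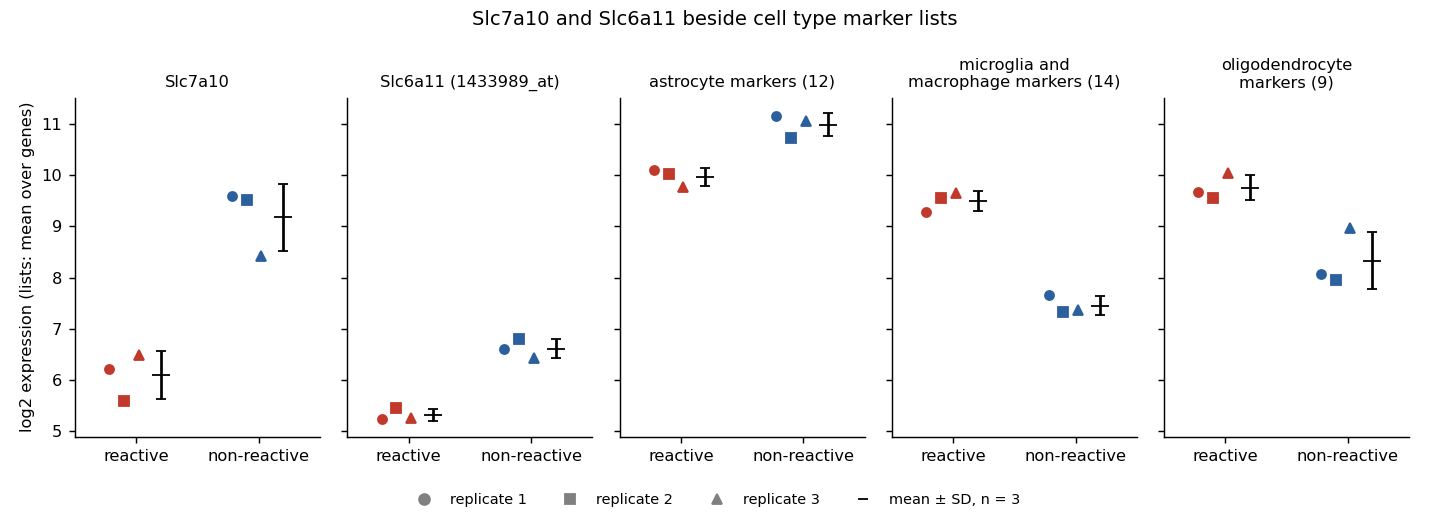
Log2 expression on each array of Slc7a10, of Slc6a11 probe set 1433989_at and, as means over genes, of the markers of astrocytes (12 genes), of microglia and macrophages (14) and of oligodendrocytes (9), reactive left of non-reactive, with mean ± SD (n = 3). The first 3 panels show lower reactive points and the last 2 higher ones, with no overlap in any panel.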

How the data were processed

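Each of 6 Affymetrix mouse expression arrays was hybridised with RNA amplified in 2 rounds from a pool of sorted cells, per the labels' protocols. The authors deposited log2 expression values computed with RMA, per the submitters' processing notes. Which RMA version and background setting were used is not given in the sources used here. The method usually equalises the distributions of the arrays, so a change in total RNA per cell cannot be seen, and low values are compressed. The number of arrays limits the precision, and the files used here hold no detection calls.

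The 64 control probe sets were left out, leaving 45037, of which 34945 had 1 gene symbol, 932 had several and 9160 had none. Identifiers of all 6 members matched RefSeq genes of GRCm38.p6. Reactive minus non-reactive was fitted in R 4.3.3 by limma 3.58.1 (lmFit, eBayes) over all 45037 probe sets, two-sided, with Benjamini-Hochberg adjustment over all of them and a threshold of 0.05. SE is moderated. Genes outside the members were represented by their brightest probe set. From each pathway list up to 4 genes past the threshold, of which there were none, and the 3 brightest others were named. Slc3a2 is 1 of these. Pathway genes at an unadjusted p under 0.05 were named too. The members and lists were chosen with earlier results of these data known. The labels call the arrays biological replicates from pools. An exact permutation test of 3 against 3 arrays cannot go below p = 0.1 (two-sided), so none is given. The alternatives were other normalisations, variance models, array weights, filters, a replicate block, averaging over the probe sets of each gene, a 1.5-fold test and each array left out.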

Additional observations from a re-analysis of the deposited data

How the results depend on the processing

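Slc7a10 was lower in reactive astrocytes in all 15 alternatives summarised for its probe set, with log2 differences of -3.45 to -2.81. It passed in 7 of these 15, with limma adjusted p from 0.0293 to 0.137. Outside these 15, averaging over the probe sets of each gene gave -3.07 for it (limma adjusted p = 0.024). Without probe sets ending in _x_at, _s_at or _a_at, 1 of 10 member probe sets passed. Slc6a11 probe set 1433989_at had differences of -1.38 to -1.19 and passed in none of 15 (0.051 to 0.337), and with the mean of both its probe sets the gene differed by -0.61. The count of member probe sets past the threshold was 0 against a 1.5-fold change and 0 to 0 with any 1 array left out. The count over all probe sets was 383, with 41 against a 1.5-fold change and 1 to 173 with 1 array left out. With the replicate number as a block 1 probe set passed in all and 0 of the members, and Slc7a10 had an adjusted p of 0.137. The deviations of same-numbered arrays from their group means correlated at -0.07, -0.11 and 0.04, and no reactive array correlated best with its own number. Deviations within a group of 3 arrays sum to 0, which ties these correlations together. They cannot show whether the numbers pair the arrays. Of the pathway genes 0 passed in every alternative, with 3 to 12 at an unadjusted p under 0.05. The differences of Slc6a11 1433989_at, Abat 1433855_at, Slc6a6 1420148_at, Slc6a6 1421346_a_at and Slc6a9 1431812_a_at kept their sign in all 15. Others that did not pass changed sign in some alternatives. Another quantile normalisation gave -0.0311 for Abat 1422226_at and -0.0465 for Slc6a11 1453871_at. Cyclic loess gave -0.0884 and -0.0901 for these and -0.0412 for Slc6a6 1449751_at. The mean of its probe sets gave 0.14 for Slc6a6. With 1 array left out the ranges were -0.191 to 0.207 for Slc6a9 1417636_at, -0.0847 to 0.0703 for Abat 1422226_at, -1.88 to 0.25 for Maob, -0.51 to 0.037 for Slc6a6 1437149_at and -0.0457 to 0.13 for Slc6a6 1449751_at. The cause of these changes was not tested.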
